A study of Drosophila melanogaster with 12 samples.

Results

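The 200 most counted long noncoding RNAs (lncRNAs) of the Drosophila melanogaster testis were described in testes and ovaries mutant for Tdrd5l and in those of a control line. Members were chosen by their own testis counts. Every feature whose symbol begins with "lncRNA:" was ranked by its raw counts summed over the 6 testis libraries, leaving out the dosage compensation RNAs lncRNA:roX1 and lncRNA:roX2, and the 200 highest were kept. They are 200 of 1795 eligible lncRNAs and of 17558 features in the files. Both genotypes entered the sum, so an RNA that is high in 1 genotype alone can reach the 200 through it, and the level in testis is a description and not a result.

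Long noncoding RNAs are transcripts without a long open reading frame, and many overlap a protein-coding gene on the other strand or lie between genes. In flies more of them are detected in the testis than in other tissues. Several are switched on in the late male germ line, and loss of some impairs the shaping and individualization of spermatids. Tdrd5l encodes a Tudor domain protein of germ cell granules, and Tudor domains bind methylated arginines of other proteins.

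Testes of Tdrd5l mutant males and of control males, a line called cas9 iso in the labels, came from flies 1 to 2 days old, and ovaries of mutant and control females from flies 0 to 1 day old. All were raised at 25 °C, and each of the 4 groups held 3 libraries, whose values are given in the order of replicates 1, 2 and 3, described as biological replicates and made from 200 ng of RNA. Ribosomal RNA was removed from testis RNA, while RNA from ovaries was poly(A) selected, so tissue and RNA selection cannot be told apart. The labels do not describe the lesion. Tdrd5l, listed as CG15930, had 938, 739 and 679 counts in the mutant testis replicates, against 542, 549 and 684 counts in the control testis replicates (log2 fold change 0.01, SE 0.34, edgeR adjusted p = 0.998), which is a count over all exons and no check of the genotype.

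Gene counts totalled 1390699 to 2880119 per testis library and 772292 to 1647933 per ovary library, and genes held 3.33% to 5.02% of uniquely aligned records in testes and 1.96% to 3.30% in ovaries. The library kit as named does not mark strand, and no source used here gives the strand setting of the counting. Even so, antisense RNAs by annotation made up 46.0% ± 12.7 (mutant) and 47.2% ± 3.27 (control) of ovary gene counts (SD, n = 3 each). Whether the counts of an lncRNA opposite an exon came from reads of the gene on the other strand was not tested. The 7 testis germ line markers summed to 2236 to 5564 CPM (counts per 1000000) in mutant testes and 2433 to 3375 CPM in control testes, against 8.80 to 36.4 CPM in mutant ovaries and 16.8 to 36.8 CPM in control ovaries, where aly, can and Mst87F were at 0. The 9 ovary germ line and follicle markers summed to 184 to 700 CPM in mutant ovaries and 245 to 362 CPM in control ovaries. In testes, where 8 of the 9 had counts, they summed to 98.1 to 161 CPM in mutants and 123 to 174 CPM in controls. Cyst and hub markers summed to 58.5 to 122 CPM in mutant and 46.0 to 74.5 CPM in control testes. In ovaries these were 125 to 386.5 CPM in mutants and 122 to 214.5 CPM in controls. Accessory gland markers (6 of 6 with counts) summed to 89.5 to 348 CPM in mutant testes and 67.6 to 223 CPM in control testes. Muscle markers summed to 254 to 2888 CPM in mutant ovaries and 548 to 1946 CPM in control ovaries, and to 81.3 to 157 CPM in testes. Their part in the results was not tested.

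The members had 109 to 8724 counts over the 6 testis libraries, with a median of 238, and held 82.7% of all eligible lncRNA counts of testis. The first 10 held 36.3% of the members' 126648 testis counts. At the lower edge, lncRNA:CR45473 had 111, lncRNA:CR44268 had 110 and lncRNA:CR44206 had 109 counts. The RNAs lncRNA:CR44778 and lncRNA:CR45294 also had 109 counts and were left out because the tie was broken by identifier, and lncRNA:CR43612 followed with 108. Members lay on 3R (52), 2L (50), 3L (41), 2R (35), X (21) and 4 (1). Their median exon length was 824.5 bases and 112 of the 200 (56.0%) have a single exon, against 600 bases and 67.6% among the other 1595 lncRNAs.

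By the annotation, 67 members have bases opposite another gene's exon, 39 lie opposite an intron alone, 30 lie within or hold a gene on their own strand, and 64 lie apart from other genes. The 67 opposite an exon face protein-coding genes (33), other lncRNAs (29), an annotated antisense RNA (1) or other features (4). Among them are 8 pairs in which both partners are members. For 30 pairs with a protein-coding partner in the files, raw counts per exon base were pooled over the libraries of each group, with a small constant added. The lncRNA was denser than the coding gene in 23 pairs in mutant testes (median log2 ratio 1.50) and 26 pairs in control testes (median log2 ratio 2.14). Of the 27 pairs with at least 10 counts in ovaries, it was denser in 21 in mutant ovaries (median log2 ratio 4.88) and in 22 in control ovaries (median log2 ratio 5.88). The densities of the 2 partners thus differ, but which strand the counted reads came from was not tested.

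The most counted member was lncRNA:CR45668 (FBgn0267228, X, 5882480 to 5899989, minus strand, coordinates from the BDGP6.54 annotation), which has 30.1% of its exon bases opposite CG16721. It had 1772, 1406 and 1153 counts in the mutant testis replicates, against 1271, 1407 and 1715 counts in the control testis replicates. The groups overlap, and its log2 fold change was -0.44 (SE 0.34, edgeR adjusted p = 0.852). Its partner CG16721 had 544 counts over the 6 testis libraries, and lncRNA:CR45668 was the one of the first 10 with many counts in ovaries, 536 to 762 per library in mutant ovaries and 641 to 834 in control ovaries.

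Behind it came lncRNA:CR45877, a single-exon RNA inside dpr6, a gene for an immunoglobulin domain cell surface protein. It had 1468, 898 and 739 counts in the mutant testis replicates, against 841, 1058 and 1294 counts in the control testis replicates, where dpr6 itself had 27 counts in all. lncRNA:CR44456, a 401-base RNA 127 bp from Gpdh2, a glycerol-3-phosphate dehydrogenase gene, was the densest member, with 1003 CPM per kilobase in mutant testes and 1297 CPM per kilobase in control testes. The next densest in control testes were lncRNA:CR43264 (885 CPM per kilobase in mutant and 641.5 in control testes), lncRNA:CR45877 (424 and 588) and lncRNA:CR45668 (342 and 464). lncRNA:CR44917, lncRNA:CR44680, lncRNA:CR43264, lncRNA:CR32652, lncRNA:CR32658, lncRNA:CR45803 and lncRNA:CR45998 completed the first 10, and among all 10 only lncRNA:CR45998 passed the test between genotypes (edgeR, with log2 fold changes of the other 9 between -0.47 and 0.51).

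Few members carry a name of their own. Hsromega, a nuclear RNA that is induced by heat and organizes the omega speckles of RNA-binding proteins, had 123, 195 and 62 counts in the mutant testis replicates, against 77, 104 and 175 counts in the control testis replicates (lncRNA:Hsromega, log2 fold change -0.39, SE 0.33, edgeR adjusted p = 0.884). Its groups overlap in both tissues, with 4, 41 and 10 counts in the mutant ovary replicates, against 20, 10 and 9 counts in the control ovary replicates. The lncRNA:alphagamma-element:CR32865, 7560 bp from the heat shock gene Hsp70Ba, had 15.3 ± 3.07 CPM in mutant testes against 23.4 ± 6.67 CPM in control testes (SD, n = 3 each; log2 fold change -0.61, edgeR adjusted p = 0.816). In all, 5 members hold microRNA genes, namely Hsromega (mir-4951), lncRNA:CR45913 (mir-1002 and mir-968), lncRNA:CR43836 (mir-31b), lncRNA:CR45345 (mir-375) and lncRNA:CR44206 (mir-184).

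The first comparison of the design asked how gene expression differs between Tdrd5l mutant and control testes. Of the 199 members that passed the filter on low counts (lncRNA:CR45965 did not), 7 passed the test (edgeR's quasi-likelihood test, adjusted p under 0.05 by Benjamini-Hochberg over all features, here termed called), 3.52% of those tested, against 92 of 9768 features in all (0.942%). Higher in mutant testes were 4 members, lncRNA:CR45791, lncRNA:CR44206, lncRNA:CR45998 and lncRNA:CR44479 (2.01%, against 0.317% of all features), and lower were 3, lncRNA:CR44957, lncRNA:CR44484 and lncRNA:CR45561 (1.51%, against 0.624%). At an unadjusted p under 0.05 there were 32 members (16.1%), against 712 features (7.29%). The median log2 fold change was 0.00 over the members and 0.03 over all features tested, and 99 members had positive and 100 negative values. These shares draw in part on the ranking: for 47 of the 200 members, counts at the level of the lower genotype in both would sum to less than the 109 of the last member, and 5 of the 7 called (lncRNA:CR45791, lncRNA:CR44206, lncRNA:CR44479, lncRNA:CR44957 and lncRNA:CR44484) are among these 47. The members' excess over all features is therefore no result about them.

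**Figure D1:**
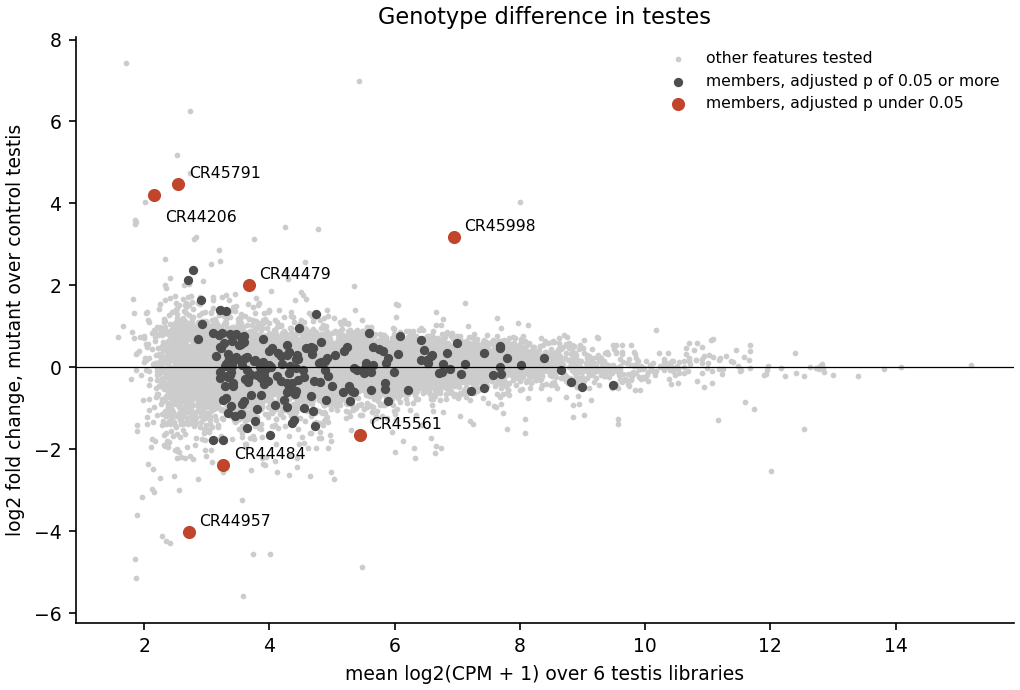
Log2 fold change of mutant over control testes (y axis) against the mean log2(CPM + 1) over the 6 testis libraries (x axis) for every feature tested, with the 199 tested members in dark grey and the 7 called members in red with their names. The called members span log2 fold changes of -4.02 to 4.47, and the other members lie between -1.79 and 2.38.

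The genotypes did not overlap for 29 members (14.6%), against 11.8% of all features tested. This held for 12 members higher in mutant testes (6.03%, against 5.67% of features) and 17 lower (8.54%, against 6.12%), shares not far from those over all features. Of 114 tested lncRNAs below the 200, 3 were called (2 higher and 1 lower), of 383 antisense RNAs 2 (both higher) and of 7403 protein-coding genes in the same range of testis counts 53 (20 higher and 33 lower). In these bulk samples fewer cells of a type and less RNA per cell cannot be told apart. Summed, the members held 1.01% ± 0.016 of gene counts in mutant testes and 1.02% ± 0.039 in control testes (SD, n = 3 each).

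The called member with by far the most counts was lncRNA:CR45998 (FBgn0267660, 3L, 16017537 to 16021582, plus strand, 5 exons). It had 884, 1040 and 666 counts in the mutant testis replicates, against 46, 87 and 83 counts in the control testis replicates. Each mutant library lay above each control library, at 371 ± 87.3 CPM in mutant testes against 40.8 ± 8.73 CPM in control testes (SD, n = 3 each; log2 fold change 3.18, SE 0.36, edgeR adjusted p = 1.77e-07). It was called in all 16 alternatives (log2 fold change 2.96 to 3.35). Of its exon bases 67.0% lie opposite lncRNA:CR43949, which had 11, 19 and 6 counts in the mutant testis replicates, against 0, 1 and 0 counts in the control testis replicates and was too low to be tested. The nearest coding gene, Notum, a secreted inhibitor of Wingless signalling 1898 bp away, gave a log2 fold change of -0.27 with edgeR adjusted p = 0.949, and lncRNA:CR45998 had 2 counts over the mutant and 0 over the control ovary libraries.

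Fewer counts stood behind lncRNA:CR45791 (FBgn0267441, 2L, 4185268 to 4186093, minus strand), which had 51, 31 and 55 counts in the mutant testis replicates, against 1, 0 and 4 counts in the control testis replicates. The groups do not overlap (22.1 ± 14.9 CPM in mutant testes against 0.835 ± 0.868 CPM in control testes, SD, n = 3 each; log2 fold change 4.47, SE 0.73, edgeR adjusted p = 2.46e-04). Of its 142 testis counts 137 came from mutant libraries. The call was kept in 15 of 16 alternatives and lost with all 12 libraries in 1 model (adjusted p = 0.0587). It lies 157 bp from the 3′ end of Tbcc, a tubulin folding cofactor gene on the same strand. Tbcc had 47, 43 and 29 counts in the mutant testis replicates, against 5, 6 and 16 counts in the control testis replicates, also without overlap, but did not pass (log2 fold change 1.76, SE 0.53, edgeR adjusted p = 0.143). Another member, lncRNA:CR44057, is opposite 65.3% of the exon bases of lncRNA:CR45791 and gave a log2 fold change of 0.37 with edgeR adjusted p = 0.919.

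The last member of the ranking, lncRNA:CR44206 (FBgn0265104, 2R, 13329352 to 13344808, minus strand), spans mir-184, a microRNA with roles in the female germ line. It had 60, 26 and 19 counts in the mutant testis replicates, against 0, 0 and 4 counts in the control testis replicates (log2 fold change 4.20, SE 0.82, edgeR adjusted p = 0.00278). The groups do not overlap. Since 105 of its 109 counts came from mutant libraries, it entered the ranking through the genotype in which it is high. All 12 libraries in 1 model ended this call as well (adjusted p = 0.276), the other 15 alternatives keeping it. The mir-184 feature itself was listed at 0 in all libraries, and CG17048, the nearest coding gene at 8830 bp, gave a log2 fold change of -0.37 with edgeR adjusted p = 0.916.

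The smallest of the rises was that of lncRNA:CR44479 (FBgn0265672, 2L, 11661690 to 11662172, minus strand, opposite lncRNA:CR44480), with 53, 54 and 61 counts in the mutant testis replicates, against 4, 8 and 24 counts in the control testis replicates. The groups do not overlap (log2 fold change 2.00, SE 0.50, edgeR adjusted p = 0.0346). The call rests on single libraries: the adjusted p was 0.257 without control replicate 1, 0.177 without control replicate 2, 0.0590 without mutant replicate 2 and 0.0638 without mutant replicate 3, and it reached 1.0 over the 16 alternatives, 9 of which kept the call.

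Among the falls, lncRNA:CR44957 (FBgn0266262, X, 4311989 to 4315059, minus strand) had 3, 0 and 5 counts in the mutant testis replicates, against 31, 24 and 52 counts in the control testis replicates. All mutant libraries lay below all control libraries, at 1.52 ± 1.81 CPM in mutant testes against 20.2 ± 5.37 CPM in control testes (SD, n = 3 each; log2 fold change -4.02, SE 0.70, edgeR adjusted p = 7.59e-04). It overlaps mei-9, a nuclease gene of meiotic crossing over and DNA repair, on the same strand. With 14, 9 and 2 counts in the mutant testis replicates, against 20, 4 and 11 counts in the control testis replicates, mei-9 did not separate the genotypes and was too low to be tested. The call was lost with all 12 libraries in 1 model (adjusted p = 0.361) and kept in the other 15 alternatives. Control libraries gave 107 of the testis counts of lncRNA:CR44957. Of its exon bases 21.7% lie opposite lncRNA:CR46156, not analysed here.

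The second fall, lncRNA:CR44484 (FBgn0265677, 2L, 3268269 to 3268646, plus strand), had 10, 4 and 11 counts in the mutant testis replicates, against 30, 26 and 49 counts in the control testis replicates (log2 fold change -2.38, SE 0.56, edgeR adjusted p = 0.0204). The groups do not overlap in counts or in CPM, but the adjusted p was 0.128 without control replicate 1, 0.0505 without mutant replicate 1 and 0.225 without mutant replicate 2, and it reached 1.0 over the alternatives. The nearest coding gene, CG3347 at 791 bp, gave a log2 fold change of 0.59 with edgeR adjusted p = 0.874.

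lncRNA:CR45561 (FBgn0267121, 3R, 10969667 to 10970278, plus strand) had 34, 102 and 46 counts in the mutant testis replicates, against 146, 141 and 113 counts in the control testis replicates (log2 fold change -1.66, SE 0.39, edgeR adjusted p = 0.0231). The groups do not overlap. The adjusted p was 0.316 without control replicate 1, 0.0614 without control replicate 2, 0.221 without mutant replicate 1 and 0.0574 without mutant replicate 2, and it reached 1.0 over the alternatives. It ends 2103 bp from side-VI, a gene of the Sidestep family of immunoglobulin proteins, which had 559 ± 334 CPM in mutant testes against 1330 ± 643 CPM in control testes (SD, n = 3 each; log2 fold change -1.25, edgeR adjusted p = 0.327). On the opposite strand within an intron of side-VI lies lncRNA:CR46007, named here after its values were seen as the uncalled member with the smallest p, with 32, 46 and 29 counts in the mutant testis replicates, against 0, 8 and 8 counts in the control testis replicates (log2 fold change 2.38, edgeR adjusted p = 0.0677).

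**Figure D2:**
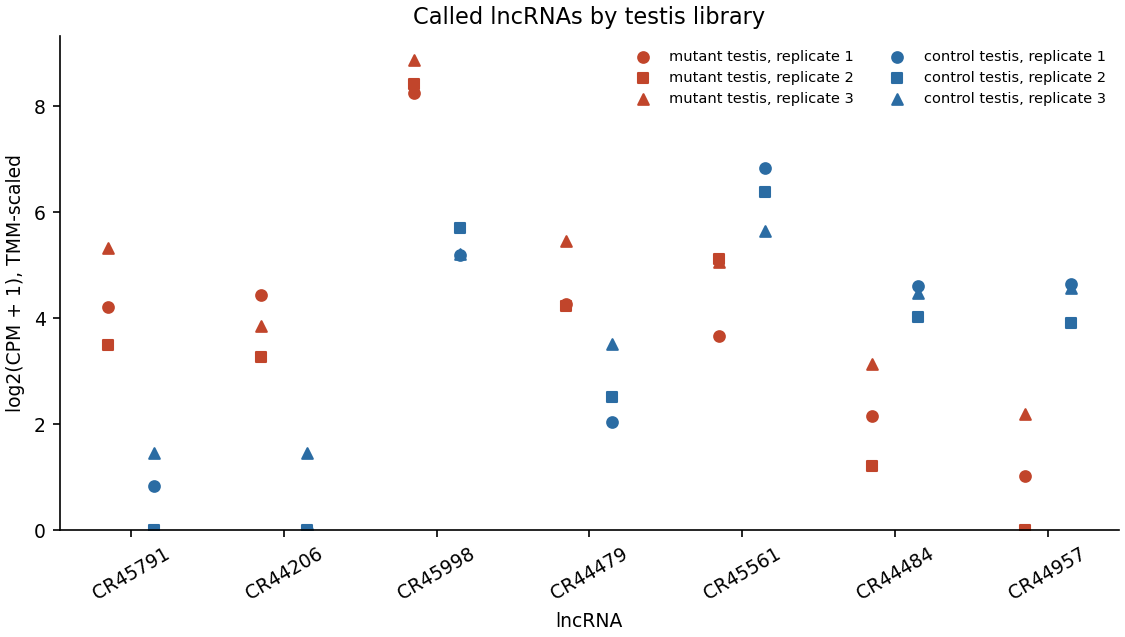
Level of the 7 called members in each testis library, as log2(CPM + 1) with TMM scaling (y axis), mutant libraries in red left of control libraries in blue, with 1 symbol for each replicate. For each lncRNA the 3 mutant libraries lie all above or all below the 3 control libraries, and lncRNA:CR45998 is the highest of the 7 in mutant testes.

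Mutant testis replicate 3 stood apart from replicates 1 and 2, and its deviation followed the position of the lncRNAs. As the difference in log2(CPM + 1) between replicate 3 and the mean of replicates 1 and 2, the median was 0.88 for members opposite an exon and 0.44 for members opposite an intron, but -0.18 for members within or holding a same-strand gene and -0.24 for members apart from other genes. Replicate 3 was below the others by more than 1 for 3 of 67, 7 of 39, 7 of 30 and 21 of 64 members of these classes. It was above them by more than 1 for 26, 8, 3 and 9. This split was not particular to lncRNAs. Protein-coding genes in the same range of testis counts had a median of 0.37 with an opposite exon and -0.33 without one. The median of annotated antisense RNAs was 0.82. Members on X had a median of -0.98 (range -3.81 to 1.67), with 10 of 21 below -1 and 6 above 1. They were not compared with X-linked features at large.

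Shortfalls in replicate 3 included those of lncRNA:CR43264, with 925, 1398 and 98 counts in the mutant testis replicates, against 239, 231 and 674 counts in the control testis replicates, and of lncRNA:CR43279, with 484, 429 and 56 counts, against 111, 139 and 270 counts in the control testis replicates. lncRNA:CR32652 had 718, 1386 and 145 counts in the mutant testis replicates, against 306, 246 and 704 counts in the control testis replicates. In each of these the 2 first mutant libraries are high and the third is low, so the genotypes overlap. The counts of lncRNA:CR43278, near lncRNA:CR43279 on X, were 90, 106 and 2 in the mutant testis replicates, against 22, 21 and 54 in the control testis replicates. These lncRNAs had 0 to 10 counts over all ovary libraries.

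The same library was low in spermatid differentiation genes, in spermatocyte genes and in genes without an opposite exon. Over 19 coding genes of spermatids with counts, among them dj, djl and the Mst84D genes, replicate 3 deviated by a median of -0.80 (range -2.23 to -0.18). The mean log2(CPM + 1) of these genes was 7.71, 7.69 and 6.75 in the mutant testis replicates, against 6.87, 7.02 and 7.24 in the control testis replicates. The 9 spermatocyte genes deviated by a median of -0.88 (range -1.86 to 0.38). Their mean was 4.28, 4.32 and 3.62 in the mutant testis replicates, against 4.02, 3.85 and 4.03 in the control testis replicates. Genes without an opposite exon held 40.2%, 44.2% and 27.2% of counts in the mutant testis replicates, against 29.7%, 34.1% and 37.5% in the control testis replicates. Their part in the deviation of the lncRNAs was not tested. None of the 19 spermatid genes was called with all 6 libraries (edgeR; median log2 fold change 0.45, 18 positive), and none of the 9 spermatocyte genes tested (median log2 fold change 0.20).

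**Figure D3:**
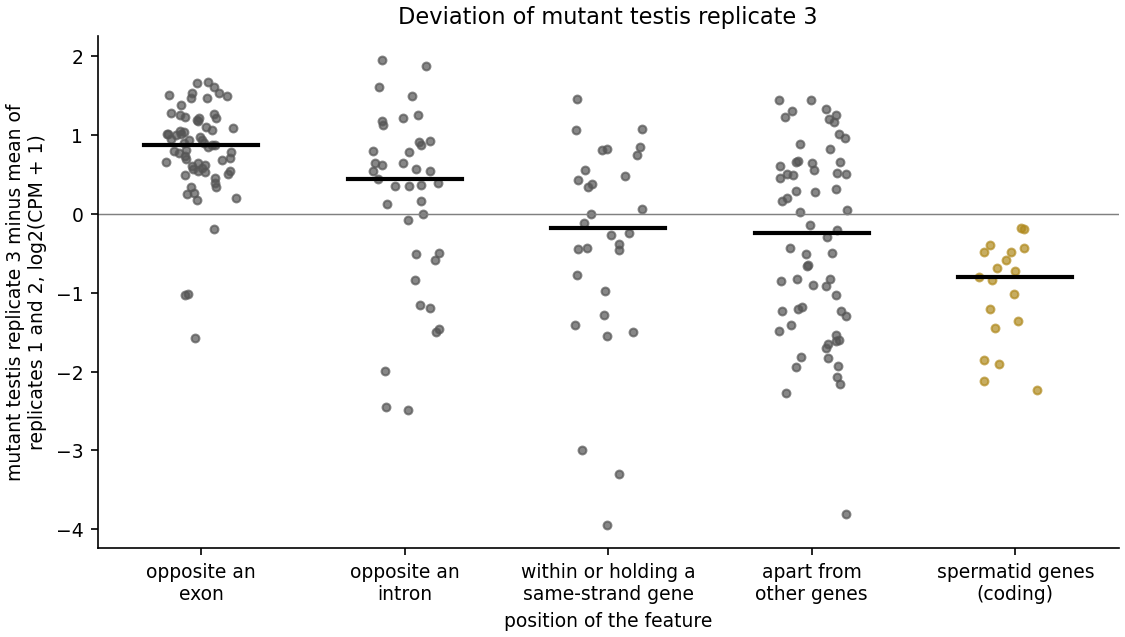
Difference in log2(CPM + 1) between mutant testis replicate 3 and the mean of mutant testis replicates 1 and 2 (y axis) for each of the 200 members by position class, and for 19 spermatid genes (x axis). Each point is 1 RNA and each bar a median, 0.88 opposite an exon, 0.44 opposite an intron, -0.18 with a same-strand gene, -0.24 apart from other genes and -0.80 for the spermatid genes.

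Without mutant testis replicate 3 the count of called members became 37 of 200 (18.5%), 11 higher and 26 lower, against 725 of 10619 features (6.83%), 287 higher (2.7%) and 438 lower (4.12%), and 6 of the 7 called with all libraries were among the 37. The 26 lower members comprised 15 opposite an exon, 8 opposite an intron, 0 with a same-strand gene and 3 apart from other genes, and the 11 higher comprised 2, 3, 4 and 2 of these classes. Of the members opposite a protein-coding exon, 10 were lower and 0 higher. Other features opposite an exon leaned the same way, with 33 higher and 148 lower among 2800 protein-coding genes of the same range of testis counts that have one, and asRNA features had 2 higher and 69 lower of 404. The counts of genes with no exon on the other strand made up 40.2% and 44.2% of those 2 mutant libraries, against 29.7% to 37.5% of the control libraries, so genotype and this share cannot be told apart in that fit. In this fit 8 of 19 spermatid genes were called higher and 0 lower. With all 6 libraries and a model term for the strand ratio, the log2 ratio between counts of genes lacking and genes having an opposite exon, 8 of 199 members were called (4.02%, against 1.78% of features), 6 higher and 2 lower where all features gave 85 higher (0.87%) and 89 lower (0.911%), and DESeq2 called 8 of 199 (4.02%, against 1.04% of features).

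In ovaries 87 members (43.5%) had 0 counts over the 6 libraries, where 3 counts is the limit that a count of 0 allows, counting error alone considered. A further 46 members had 1 to 9 counts and 67 had 10 or more, and 57 had a count in every ovary library. Of the 1595 lncRNAs below the 200, 57.7% had 0 ovary counts. At least 10 ovary counts were found for 33 of 67 members opposite an exon, 24 of 39 opposite an intron, 6 of 30 with a same-strand gene and 4 of 64 apart from other genes. Among those opposite an exon, this held for 28 of 33 with a protein-coding partner and for 3 of 29 with an lncRNA partner. The members held 1.18% ± 0.308 of gene counts in mutant ovaries and 1.22% ± 0.058 in control ovaries (SD, n = 3 each).

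A higher mean CPM in ovaries than in testes was found for 32 members in both genotypes, 20 of them opposite a protein-coding exon. The highest was lncRNA:CR45324, a single-exon RNA with 10.9% of its bases opposite TER94, the gene of an ATPase that extracts proteins from membranes and complexes. It had 1919, 1716 and 2093 counts in the mutant ovary replicates, against 1808, 1468 and 1764 counts in the control ovary replicates, while the testis libraries had 157 to 286 counts each. The groups overlap between genotypes in both tissues. lncRNA:CR45591, opposite the actin gene Act87E, had 1356 ± 516 CPM in mutant ovaries against 1214 ± 158 CPM in control ovaries (SD, n = 3 each). In testes it had 13.2 ± 9.49 CPM in mutants against 23.8 ± 10.1 CPM in controls (SD, n = 3 each). Act87E itself had 435 counts over the 6 ovary libraries, where lncRNA:CR45591 had 7164. The strand that these reads came from was not tested, so these values do not rank the lncRNA against its coding partner. A higher level in ovaries was shared by annotated antisense RNAs at large. They held 46.0% ± 12.7 of gene counts in mutant and 47.2% ± 3.27 in control ovaries, against 15.7% ± 3.67 in mutant and 17.0% ± 1.93 in control testes (SD, n = 3 each). The mutant ovary replicates had 53.5%, 31.3% and 53.2%.

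The remaining 4 of the 6 highest were lncRNA:CR44986 (opposite Gpdh1, a glycerol-3-phosphate dehydrogenase gene), lncRNA:CR44060 (opposite drongo), lncRNA:CR45438 (opposite HDAC1, a histone deacetylase gene) and lncRNA:CR44816 (opposite Marf, the mitofusin gene). They had 6141, 5947, 5071 and 4452 counts over the 6 ovary libraries. Their coding partners had 178, 300, 255 and 519. As for Act87E, the strand that these reads came from was not tested. Together the 6 highest held 56.5% of the members' 69958 ovary counts.

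**Figure D4:**
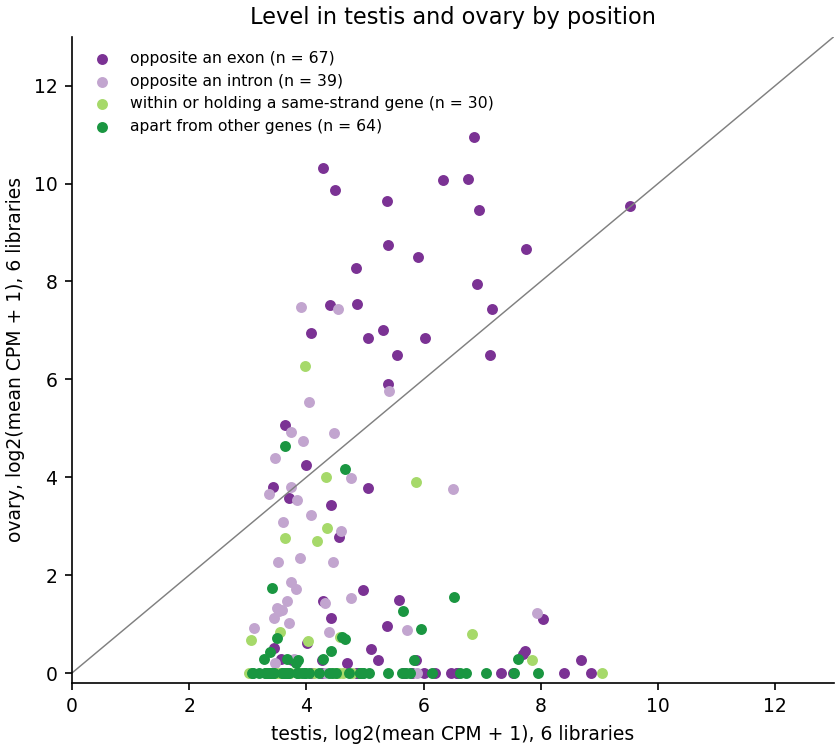
Level of each member in ovaries (y axis) against its level in testes (x axis), both as log2 of the mean CPM over 6 libraries + 1, coloured by position class, with the line of equal level. Points on the bottom line are the 87 members with 0 ovary counts, and of the 32 members above the line in both genotypes 23 lie opposite an exon.

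The second comparison of the design asked how mutant and control ovaries differ. Of the 44 members that passed the filter on low counts, 0 were called (edgeR, adjusted p under 0.05), as were 0 of 4683 features (0%). In simulated ovary counts the same test called 0%, 5.97% and 60% of features changed by 1, 2 and 3 on the log2 scale. In simulated testis counts it called 13.8%, 83.6% and 100%. The lack of calls in ovaries is therefore no sign that the genotypes are alike there. False calls in these simulations numbered 7 in ovaries, with 4331 features tested, and 4 in testes, with 9450 tested. At an unadjusted p under 0.05 edgeR gave 3 members (6.82%), against 184 features (3.93%), namely lncRNA:CR45179, lncRNA:CR45791 and lncRNA:CR45473. DESeq2 called 1 of 44 members, lncRNA:CR45179 (2.27%, against 0.309% of features), and limma-voom called 0. With the strand ratio as a term edgeR called 2 of 44 (4.55%, against 2.18% of features), and without mutant ovary replicate 2, where genes without an opposite exon held 31.1% of counts against 5.77% to 14.4% in the other ovary libraries, it called 2 of 47 (4.26%, against 1.14% of features).

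Tissue and genotype were also tested together. The difference between the genotype effects of testis and ovary was called for 1 of 199 members (0.503%), against 3 of 10321 features (0.0291%), of which 1 was positive (0.00969%) and 2 negative (0.0194%). At an unadjusted p under 0.05 there were 8 members (4.02%), against 550 features (5.33%). The member was lncRNA:CR45179 (FBgn0266689, 3L, 16689268 to 16697897, plus strand), which lies opposite an intron of Lasp, the gene of an actin-binding LIM and SH3 domain protein.

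In ovaries lncRNA:CR45179 had 72, 118 and 84 counts in the mutant replicates, against 4, 0 and 1 counts in the control replicates. In testes it had 33, 43 and 32 counts in the mutant replicates, against 14, 28 and 40 counts in the control replicates. The genotypes are thus apart in ovaries, at 88.7 ± 19.6 CPM in mutant against 1.72 ± 1.95 CPM in control ovaries, and overlap in testes, at 16.0 ± 5.86 CPM in mutant against 14.9 ± 3.50 CPM in control testes (SD, n = 3 each). The log2 fold change was 5.51 in ovaries (SE 0.80, edgeR adjusted p = 0.327) and 0.06 in testes (SE 0.44, edgeR adjusted p = 0.992), and the difference, testis minus ovary, was -5.41 (SE 0.91, edgeR adjusted p = 0.0393). The ovary effect was called in 6 of 16 alternatives and not in the other 10. Its adjusted p was 2.15e-07 by DESeq2 and 0.607 by limma-voom. In the same ovaries Lasp had 38, 40 and 27 counts in the mutant replicates, against 10, 2 and 5 counts in the control replicates, also without overlap (log2 fold change 2.47, edgeR adjusted p = 0.732). The share of all ovary features whose genotypes do not overlap was not counted (11.8% in testes), so such a separation alone is no result. The difference between tissues kept its call in 11 of 21 alternatives, with adjusted p up to 0.232, and lost it without control ovary replicate 2 (0.134) or 3 (0.118) and without any 1 of the 6 testis libraries (0.0729 to 0.232).

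The testis call of lncRNA:CR45791 had a counterpart in ovaries with larger counts. It had 71, 57 and 34 counts in the mutant ovary replicates, against 10, 11 and 4 counts in the control ovary replicates, and the genotypes do not overlap. At 55.7 ± 31.8 CPM in mutant ovaries against 9.35 ± 3.97 CPM in control ovaries (SD, n = 3 each), the log2 fold change was 2.55 (SE 0.62, edgeR adjusted p = 0.722). It was called in 2 of 16 alternatives, with the strand ratio as a term (0.0256) and without mutant ovary replicate 2 (0.0207). Tbcc had 32, 68 and 48 counts in the mutant ovary replicates, against 9, 3 and 3 counts in the control ovary replicates, again without overlap (log2 fold change 3.06, edgeR adjusted p = 0.421). As for Lasp, these separations were not set against the share over all ovary features. The tissue difference of lncRNA:CR45791 was 1.96 on the log2 scale (edgeR adjusted p = 1.0).

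**Figure D5:**
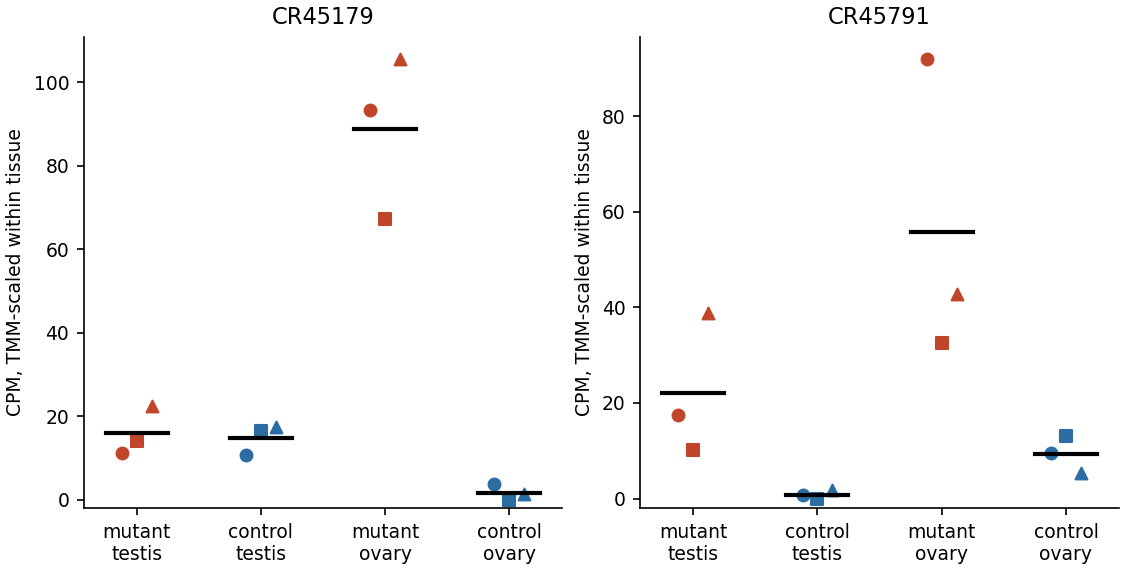
CPM of lncRNA:CR45179 and lncRNA:CR45791 in the 12 libraries (y axis, TMM-scaled within tissue) by group (x axis), with circles, squares and triangles for replicates 1, 2 and 3 and a bar at each mean. Mutant ovaries are above control ovaries for both RNAs, at means of 88.7 against 1.72 CPM and 55.7 against 9.35 CPM, while the testis groups separate only for lncRNA:CR45791.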

How the data were processed

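The deposited values are raw read counts per gene, each library in a file of its own. Per the submitters' processing notes, the authors used FastQC, TopHat2 2.1.1, HTSeq 0.9.1 and DESeq with the BDGP6 genome. The 5 summary lines of each file, 95.8% to 98.2% of all records, entered neither library sizes nor tests. Symbols, positions and exon overlaps came from the BDGP6.54 annotation, which held 17252 of 17558 features. No genome sequence was used.

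All features were tested with edgeR 4.0.16 in R 4.3.3 (quasi-likelihood F tests, robust and two-sided, after TMM scaling and filterByExpr at a minimum count of 10, with p-values adjusted by Benjamini-Hochberg), within each tissue and as a tissue by genotype interaction over 12 libraries, and the code was tested on simulated data. SE is the absolute log2 fold change over the square root of F. CPM are TMM-scaled within tissue, except for the marker sums, which are scaled by library size alone. The alternatives included DESeq2 1.42.0 and limma 3.58.1. The limit for 0 is 3 counts and, like any counting limit, covers counting error only.

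Members and lists were chosen with earlier results of these data known. Named members are the first 10, all called members with their nearest coding gene, the 6 highest in ovaries, those called for the interaction, those with names of their own and those at the lower edge. The microRNA hosts, lncRNA:CR46007, lncRNA:CR43278 and lncRNA:CR43279 were added after their values were seen. Replicate numbers were used as a block only as an alternative. The spermatid list held 20 matched genes, 1 of them with 0 testis counts, and the spermatocyte list 9.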

Additional observations from a re-analysis of the deposited data

Results flagged for a closer look

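The genotype effects on lncRNA:CR45179 differed between the tissues by -5.41 on the log2 scale (testis minus ovary; edgeR interaction test, adjusted p = 0.0393). It had 72, 118 and 84 counts in mutant ovary libraries 1, 2 and 3, against 4, 0 and 1 counts in control ovary libraries 1, 2 and 3, while the testis groups overlap. The value lay between -6.80 and -4.92 over the 12 fits that leave out 1 library, and 8 of these lost the call (adjusted p 0.0729 to 0.232), as did the fit with a replicate block (0.0588) and library size alone (0.174).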

How the results depend on the processing

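Settings not named here kept the counts of called members within 1.5 times. In testes 7 of 199 members (3.52%) were called, beside 92 of 9768 features (0.942%). Calls over all features move with the setting too, to 725 of 10619 (6.83%) without mutant testis replicate 3. The counts of members given here and for the replicate block are therefore no result about the members alone. The count of called members was 1 with all 12 libraries in 1 model, 4 with library size alone, 11 without a filter, 3 among members without an opposite exon and 2 among the 100 highest. It ran from 4 to 37 when 1 library was left out (4 without control replicate 1 or mutant replicate 2, 11 without control replicate 3, 37 without mutant replicate 3), and 4 of the 7 were called in each of these fits. In ovaries 0 members were called, 1 with DESeq2, with all 12 libraries, with the 1 CPM filter or without a filter, 2 with the strand ratio as a term, and 0 to 2 with 1 library left out (2 without mutant replicate 2). The interaction call of 1 member became 0 with library size alone and ran from 0 to 1 with 1 library left out.

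The replicate numbers gave no sign of a pairing (correlations of same-numbered libraries -0.19, 0.01 and -0.34 in testes and -0.56, -0.45 and 0.30 in ovaries), and no mutant library correlated best with the control library of its own number. These are correlations of deviations from group means, which are tied to each other within a group, so they do not settle whether samples were paired. With a replicate block 8 members were called in testes, 0 in ovaries and 0 for the interaction.

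The members' share of gene counts was 0.458% in mutant testes, 0.441% in control testes, 0.0857% in mutant ovaries and 0.0788% in control ovaries without those opposite an exon. As a share of uniquely aligned records it was 0.0436%, 0.0376%, 0.0269% and 0.0262% in the same order. Leaving out 1 library gave 0.997% to 1.01%, 0.995% to 1.03%, 1.07% to 1.36% and 1.19% to 1.25%. Under 10 ovary counts were found for 133 members, against 87 with 0. The log2 fold changes of named members kept their direction and side of the threshold in 356 of their other settings, lost the call in 22, gained one in 6 and changed sign, uncalled, in 16. With the strand ratio as a term these were 0.04 for lncRNA:CR44917 and -0.33 for both lncRNA:CR43264 and lncRNA:CR32652, and with limma-voom -0.06 for lncRNA:CR45179. The others came with 1 library left out, where the values ran from -0.34 to 0.14 for lncRNA:CR44917, -0.07 to 0.90 for lncRNA:CR43264, -0.38 to 0.59 for lncRNA:CR32652, -0.24 to 0.20 for lncRNA:CR45803, -0.26 to 0.27 for lncRNA:CR45179, -0.87 to 0.21 for lncRNA:CR45324 and -0.50 to 0.05 for lncRNA:CR44986. The cause of these changes was not tested.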
